A study of Sus scrofa with 12 samples.

Results

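Genes for splicing factors and RNA helicases were described in mesenchymal stem cells (MSCs) grown from pig fat and in the extracellular vesicles (EVs) that these cells released. A gene was taken as a member when its symbol began with SRSF, HNRNP, SF3A, SF3B, RBM, DDX, DHX, SNRP or PRPF, followed by a number where the family uses one, and HNRNPA2B1 was left out. The rule found 123 genes among the 13363 symbols with an entry in the deposited mRNA table: 30 RBM, 29 DDX, 15 DHX, 13 HNRNP, 11 PRPF, 10 SRSF, 9 SNRP and 6 SF3 genes. For the 28 members with several entries, the entry with the most reads was used. The study asked which RNAs EVs carry in excess of the cells they come from. Its mRNA data were 6 libraries, 3 from MSCs and 3 from EVs. Both kinds of library came from the same 3 female domestic pigs aged 3 months, so that replicates 1, 2 and 3 are pigs 1, 2 and 3. All MSCs were primary cells from abdominal fat at passage 3, kept in medium with platelet lysate, and none had been treated. EVs were pelleted from the medium of these cultures by ultracentrifugation.

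Pre-mRNA splicing removes introns through the spliceosome, a set of small nuclear ribonucleoproteins (U1, U2, U4, U5 and U6 snRNPs) that share a ring of Sm proteins and are rearranged by RNA helicases. SR proteins (SRSF) and heterogeneous nuclear ribonucleoproteins (HNRNP) bind exons and introns and direct which splice sites are used, and many RBM proteins act with them. DEAD-box (DDX) and DEAH-box (DHX) helicases also unwind RNA outside the spliceosome, in ribosome assembly, translation, mRNA decay and the sensing of viral RNA. Most of their mRNAs are present in nearly every cell type, and as a set they are therefore no marker of MSCs.

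The 6 libraries held between 10429085 and 12276855 reads counted on genes. Among defining markers of MSCs, CD44 had 3603 to 10023 reads and NT5E (CD73) 900 to 1816 reads in every library, ENG (CD105) had 44 to 114 reads, and THY1 (CD90) was at 0 reads in all 6. The endothelial marker PECAM1 had 111 to 215 reads in MSCs and 20 to 78 in EVs, and VWF was at 0 reads. The leukocyte marker PTPRC had at most 10 reads in a library. Other blood and myeloid markers were counted in every library, CD14 with 416 to 771 reads and CD68 with 18 to 56 reads. Among EV markers, CD63 had 8359 to 19616 reads, CD9 had 4 to 7 reads and ITGB1 had 1 to 3 reads. The platelet genes PPBP and ITGA2B were at 0 reads. A count of 0 in this table does not show that a transcript was absent, since 13 members of the families were at 0 reads as well. The paper reports that the MSCs expressed CD90 and were negative for CD14. For CD90 it names immunofluorescent staining and cell sorting, which measure protein, while the counts here are of mRNA. Each library pools many cells or vesicles, so a larger number of vesicles with a transcript and more copies per vesicle cannot be told apart. Nothing in the labels says more on how independent the cultures were than that they came from separate pigs.

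After the filter on low counts, 95 of the 123 members could be tested among 12392 entries. In edgeR's quasi-likelihood test, with p-values adjusted over all entries by Benjamini-Hochberg, 0 members differed between EVs and MSCs by more than 2-fold with an adjusted p-value under 0.05, and 0.0% of all entries did. At the study's threshold, a fold change over 2 with an unadjusted p-value under 0.05, 2 members were higher in EVs (PRPF39 and RBM27), or 2.11% of the 95, where 5.55% of all entries were. Lower in EVs was 1 member, SNRPA, or 1.05%, where 3.57% of all entries were. Without a limit on fold change, 6 members (6.32%) had an unadjusted p-value under 0.05 and a higher level in EVs, where 8.03% of all entries did. The same p-value limit with a lower level in EVs was met by 7 members (7.37%), where 7.93% of all entries met it. These counts changed with the pig as a block in edgeR, to 9 members higher, where 10.9% of all entries were, and 2 lower, SNRPA and RBM42, where 8.67% of all entries were. With the pig as a block in edgeR, 0 members and 1.1% of all entries passed the adjusted threshold, and DESeq2 passed 2 members, PRPF39 and SNRPA, and 3.28% of all entries.

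Across the 95 members the log2 fold change of EVs over MSCs ran from -1.45 to 1.35, with a median of 0.01 beside -0.02 over all entries. A difference of less than 0.5 on the log2 scale was seen in 70 members (73.7%) and in 54.1% of all entries. The members were also measured with less error, with a median standard error (SE) of 0.28 on the log2 scale beside 0.38 for all entries. Summed over all 123 members, the level was 8598, 7655 and 8256 CPM (reads scaled to a common library size by TMM) in MSCs 1, 2 and 3 and 8761, 8567 and 7975 CPM in EVs 1, 2 and 3, so the groups overlapped. As a share of the counted reads, before TMM scaling, members took 0.946%, 0.652% and 0.860% in MSCs and 0.997%, 0.904% and 0.680% in EVs. MSC replicate 2 and EV replicate 3 had the lowest shares.

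**Figure D1:**
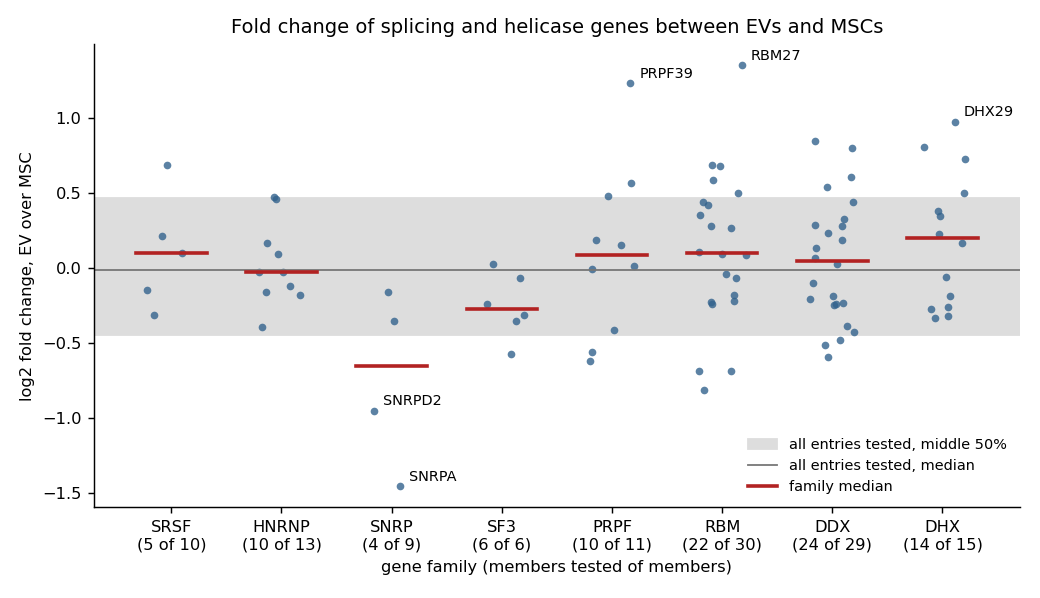
Log2 fold change of EVs over MSCs (y axis) for each tested member (points) by gene family (x axis), with the family median as a red bar, and the median and middle 50% of all 12392 entries as a grey line and band. Most members sit inside the band, with PRPF39 (1.23) and RBM27 (1.35) above it and SNRPA (-1.45) and SNRPD2 (-0.95) below it.

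The family medians lay on both sides of the median of all entries. The medians were -0.65 for SNRP (4 tested), -0.28 for SF3 (6), -0.03 for HNRNP (10), 0.05 for DDX (24), 0.09 for PRPF (10), 0.10 for SRSF (5), 0.10 for RBM (22) and 0.20 for DHX (14). Core particle proteins of the SNRP and SF3 families were thus at the low end and the DEAH-box helicases at the high end, with no test made between families. The SRSF median is the value of SRSF12 (SE 0.61), which had at most 3.25 CPM in a library. In 19 members (20.0%) the lowest EV library was above the highest MSC library, where 14.3% of all entries had this order. The highest EV library was below the lowest MSC library in 11 members (11.6%), where 13.6% of all entries were. EVs were higher than MSCs of the same pig in all 3 pigs in 26 members (27.4%, beside 22.6% of all entries) and lower in all 3 pigs in 28 (29.5%, beside 24.3%).

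PRPF39 and SNRPA passed the study's threshold in opposite directions and are described for that reason. Both are linked to the U1 snRNP. PRPF39 encodes a U1-associated factor that helps the particle bind the 5′ splice site, and its entry lies at chr1:195153592-195185563 of the susScr3 build, as do all positions given here. It had 39.3, 31.7 and 43.9 CPM in MSCs 1, 2 and 3 and 93.1, 112 and 64.3 CPM in EVs 1, 2 and 3. The lowest EV library was above the highest MSC library, and the EV was above its own MSC by 1.24, 1.82 and 0.55 on the log2 scale in pigs 1, 2 and 3. The log2 fold change was 1.23 (SE 0.28, n = 3 and 3), with an unadjusted p of 0.00246 and an adjusted p of 0.212 by edgeR's quasi-likelihood test. DESeq2 gave an adjusted p of 0.0130 for the same counts, which passes the threshold.

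SNRPA encodes the U1 snRNP protein that binds a stem-loop of U1 RNA, and its entry lies at chr6:44655718-44667220. It had 9.14, 5.07 and 7.38 CPM in MSCs and 2.96, 2.58 and 2.33 CPM in EVs, in the order of the pigs. No EV library reached the lowest MSC library. The log2 fold change was -1.45 (SE 0.37, n = 3 and 3), with an unadjusted p of 0.00461 and an adjusted p of 0.219 by edgeR's quasi-likelihood test, and DESeq2 gave an adjusted p of 0.0261. A second entry with 0 reads covers at least 91.4% of this span, and whether reads were lost to the overlap was not tested. The U1 70-kDa protein gene SNRNP70, which the rule does not include, had a log2 fold change of -0.27 (SE 0.40).

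RBM27, a zinc-finger RNA-binding protein with the paralog RBM26, lies at chr2:154149900-154178659 and was among the less abundant members. Its levels were 2.56, 1.05 and 1.95 CPM in MSCs and 3.21, 5.94 and 5.16 CPM in EVs. The groups did not overlap, but MSC 1 and EV 1 were close. The log2 fold change was 1.35 (SE 0.47, n = 3 and 3), with an unadjusted p of 0.0213 and an adjusted p of 0.264 by edgeR's quasi-likelihood test. It no longer met the study's threshold without MSC replicate 3 (adjusted p = 0.424 by edgeR), EV replicate 2 (adjusted p = 0.630) or EV replicate 3 (adjusted p = 0.414), since the unadjusted p-values were then over 0.05. RBM26 had 54.8, 15.8 and 33.0 CPM in MSCs and 57.8, 54.9 and 53.5 CPM in EVs, a log2 fold change of 0.68 (SE 0.42) with overlapping groups.

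**Figure D2:**
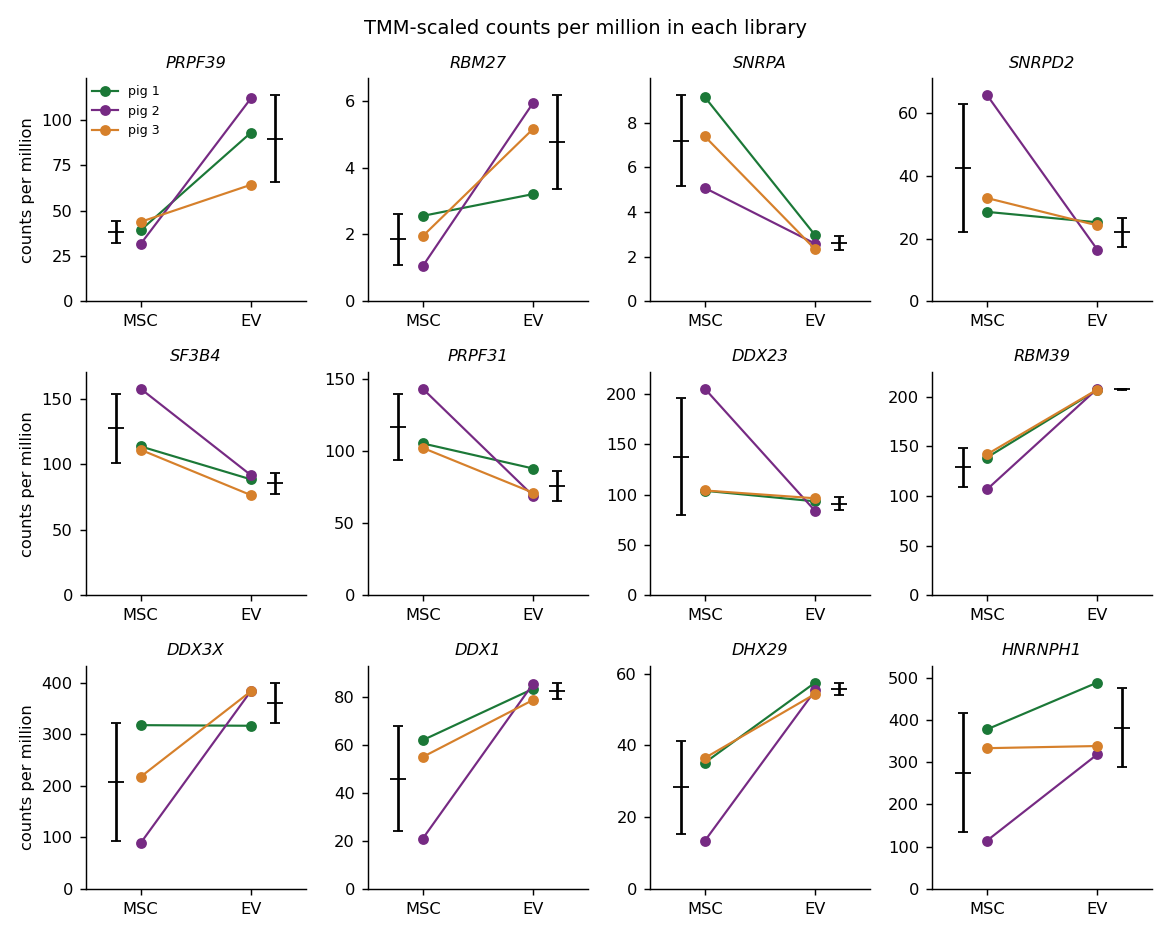
TMM-scaled CPM (y axis, from 0) of 12 members in the MSC and the EV library of each pig (x axis), joined by pig, with the group mean ± SD (n = 3) in black. PRPF39, RBM27, RBM39, DDX1 and DHX29 were higher and SNRPA, SNRPD2, SF3B4, PRPF31 and DDX23 lower in every EV library than in any MSC library. For PRPF39, RBM27, RBM39, DDX1, DDX3X, DHX29 and HNRNPH1 the MSC library of pig 2 was the lowest of the 6. It was the highest for SNRPD2, SF3B4, PRPF31 and DDX23.

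Sm proteins form the ring around snRNP RNA, and of the 6 with an entry only SNRPD1 and SNRPD2 had enough reads to test. SNRPD2 had 28.5, 65.8 and 32.9 CPM in MSCs and 25.2, 16.5 and 24.2 CPM in EVs. All EV libraries were below all MSC libraries, and MSC 2 was far above the other two. The log2 fold change was -0.95 (SE 0.38, adjusted p = 0.288 by edgeR) and -0.48 without MSC replicate 2. SNRPD1 had 40.3, 18.8 and 41.8 CPM in MSCs and 33.1, 21.3 and 24.7 CPM in EVs, which overlapped (log2 fold change -0.35, SE 0.36). The U2 protein gene SNRPA1 had a log2 fold change of -0.16 (SE 0.33). All 4 tested SNRP genes were thus below 0, but the entries of SNRPC, SNRPD3 and SNRPF were at 0 reads and those of SNRPE and SNRPN at 1 and 7 reads in all libraries together.

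SF3A and SF3B are the protein complexes by which the U2 snRNP holds the branch point, and all 6 members with an entry were tested. SF3B4, the subunit altered in Nager syndrome, had 114, 158 and 111 CPM in MSCs and 88.3, 91.5 and 76.3 CPM in EVs. No EV library reached the lowest MSC library. The log2 fold change was -0.58 (SE 0.24, unadjusted p = 0.0411, adjusted p = 0.296 by edgeR), and -0.39 without MSC replicate 2. SF3A3 was also lower in every EV library, with 114, 115 and 122 CPM in MSCs and 99.2, 93.4 and 81.9 CPM in EVs (log2 fold change -0.36, SE 0.20). SF3B2, the SF3 gene with the most reads, had 335, 412 and 312 CPM in MSCs and 300, 315 and 239 CPM in EVs. Its highest EV library was above its lowest MSC library, and the log2 fold change was -0.31 (SE 0.25), and -0.18 without MSC replicate 2. SF3A1 had a log2 fold change of -0.24, SF3B6 of -0.07 and SF3B3 of 0.02. The levels of SF3 genes per length were between 8.37 and 28.1 RPKM (the deposited reads per kilobase and per mapped reads of the library, mean of 6 libraries).

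PRPF genes are named after yeast splicing mutants and act at different steps. Their log2 fold changes ran from -0.62 to 1.23, with 6 of 10 above 0. PRPF31, which bridges U4/U6 to U5 in the tri-snRNP and is mutated in retinitis pigmentosa, had 105, 143 and 102 CPM in MSCs and 88.0, 69.1 and 71.1 CPM in EVs. The groups did not overlap, with a log2 fold change of -0.62 (SE 0.24, unadjusted p = 0.0321, adjusted p = 0.280 by edgeR), and -0.45 without MSC replicate 2. PRPF6, another bridging protein of the tri-snRNP, had 159, 281 and 170 CPM in MSCs and 142, 160 and 155 CPM in EVs, which overlapped slightly (log2 fold change -0.42, SE 0.28, and -0.11 without MSC replicate 2). PRPF8, the scaffold at the heart of the spliceosome and the PRPF gene with the most reads, was nearly even, with 502, 443 and 430 CPM in MSCs and 481, 562 and 490 CPM in EVs (log2 fold change 0.16, SE 0.23). PRPF18, a late-acting factor, had 4.80, 5.17 and 5.60 CPM in MSCs and 5.99, 8.83 and 8.19 CPM in EVs. Its groups did not overlap, and its log2 fold change was 0.56 (SE 0.32, adjusted p = 0.386 by edgeR). The symbol PRPF18 has 2 entries with 545 reads together, of which 447 were in the entry used.

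Of the 9 tested helicases that act in the spliceosome or bind its products, 6 (66.7%) had a log2 fold change under 0, beside 50.9% of all entries, and 0 had an unadjusted p-value under 0.05 by edgeR. Their median was -0.24, and -0.12 without EV replicate 2. DDX23, the U5 helicase that exchanges U1 for U6 at the 5′ splice site, had 104, 206 and 104 CPM in MSCs and 93.4, 83.7 and 96.4 CPM in EVs. The groups did not overlap, but the distance was set by MSC 2, and the log2 fold change of -0.60 (SE 0.32, adjusted p = 0.368 by edgeR) became -0.19 without that library. DHX38, which acts between the catalytic steps, had 50.6, 53.6 and 43.6 CPM in MSCs and 44.6, 41.0 and 32.7 CPM in EVs, lower in each pig (log2 fold change -0.32, SE 0.23, and -0.21 without EV replicate 3). DHX8, which releases the spliced mRNA, had a log2 fold change of -0.06 (SE 0.22), and the 2 mRNA export helicases DDX39A and DDX39B had -0.43 (SE 0.28) and -0.24 (SE 0.27). DHX15, which takes the spliceosome apart, was at 0 reads.

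Among SR proteins, 5 of 10 genes could be tested. SRSF3, the most read, had 228, 112 and 231 CPM in MSCs and 196, 141 and 178 CPM in EVs. The groups overlapped, with MSC 2 the lowest, and the log2 fold change was -0.15 (SE 0.33) with all libraries and -0.42 without MSC replicate 2. SRSF10, which is known as a splicing repressor when dephosphorylated, had 14.4, 9.57 and 16.0 CPM in MSCs and 19.5, 21.3 and 23.5 CPM in EVs. The EV libraries all lay above the MSC libraries (log2 fold change 0.68, SE 0.29, unadjusted p = 0.0474, adjusted p = 0.308 by edgeR, and 0.49 without MSC replicate 2). An entry under another name covers at least 97.4% of its span. The symbol SRSF10 has 2 entries with 2131 reads together, and the entry used held only 1211 of them. SRSF6 and SRSF7 had log2 fold changes of 0.21 (SE 0.23) and -0.31 (SE 0.29), and SRSF12, with at most 3.25 CPM in a library, had 0.10 (SE 0.61).

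HNRNP genes stayed close to 0, with all 10 log2 fold changes between -0.39 and 0.47 and all unadjusted p-values over 0.05 by edgeR. HNRNPA1, an hnRNP that antagonizes SR proteins, had 102, 70.8 and 117 CPM in MSCs and 90.8, 54.6 and 75.7 CPM in EVs. It was lower in the EV of each pig, while the groups overlapped (log2 fold change -0.39, SE 0.29, and -0.20 without EV replicate 2). HNRNPH1, which binds runs of G, had 378, 114 and 333 CPM in MSCs and 489, 319 and 338 CPM in EVs. Its log2 fold change was 0.47 (SE 0.45) with all libraries and 0.10 without MSC replicate 2. HNRNPH3, of the same subfamily, had 7.75, 5.26 and 11.8 CPM in MSCs and 11.3, 10.5 and 12.3 CPM in EVs (log2 fold change 0.46, SE 0.36, and 0.22 without MSC replicate 2). Its 2 entries held 1170 reads together, of which 684 were in the entry used. HNRNPUL1, the HNRNP gene with the most reads, had 486, 453 and 445 CPM in MSCs and 386, 405 and 430 CPM in EVs. It was lower in every EV library by a small amount (log2 fold change -0.18, SE 0.23), and its entry and that of TGFB1 overlap over at least 49.9% of both spans. By RPKM, HNRNPH1 (57.8), HNRNPD (55.6) and HNRNPU (40.6) were the highest of the family, and the family median of 24.2 RPKM compares with 5.15 RPKM over all tested members and 2.58 RPKM over all tested entries.

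RBM genes, which share little beyond an RNA recognition motif, had fold changes in both directions, with 13 of 22 above 0. RBM39, a U2AF-like splicing factor that aryl sulfonamide drugs target for degradation, had 139, 107 and 142 CPM in MSCs and 207, 208 and 207 CPM in EVs. The 3 EV libraries were nearly equal and all above the MSC libraries (log2 fold change 0.69, SE 0.22, unadjusted p = 0.0160, adjusted p = 0.251 by edgeR, and 0.565 without MSC replicate 2). RBM5, a regulator of FAS exon use and the RBM gene with the most reads, had 267, 287 and 304 CPM in MSCs and 358, 392 and 292 CPM in EVs, with overlap (log2 fold change 0.28, SE 0.23).

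RBM4, RBM14 and RBM42 lay at the low end of the family. RBM4, a regulator of alternative exons and translation, had 9.60, 15.1 and 14.5 CPM in MSCs and 7.77, 6.48 and 8.09 CPM in EVs (log2 fold change -0.81, SE 0.31, adjusted p = 0.278 by edgeR, and -0.69 without MSC replicate 2). RBM14, a paraspeckle protein, had 26.3, 42.8 and 26.2 CPM in MSCs and 21.0, 21.1 and 17.0 CPM in EVs (log2 fold change -0.69, SE 0.29, adjusted p = 0.305 by edgeR, and -0.41 without MSC replicate 2). Neither overlapped between groups, but both lie on 1 unplaced contig, where other entries cover at least 99.9% of RBM4 and 92.5% of RBM14, and how reads were divided between them was not tested. RBM42 had 121, 144 and 119 CPM in MSCs and 96.2, 76.5 and 66.6 CPM in EVs, with no overlap between groups (log2 fold change -0.68, SE 0.23, adjusted p = 0.259 by edgeR). It lies inside the much longer entry of GALNS on the other strand, and it was named after its values were seen. RBM3, a cold-inducible protein, had the highest level per length of all members, 69.8 RPKM in MSCs and 60.1 RPKM in EVs (log2 fold change -0.24, SE 0.25).

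Helicases with roles in the cytoplasm, or in several places, had the highest median among the role lists of members with more than 1 tested gene, 0.44 on the log2 scale over 16. Of these 16, 11 (68.8%) were above 0, beside 49.1% of all entries, and 8 of 16 had all EV libraries above all MSC libraries, beside 14.3% of all entries. The 8 include DDX50 (log2 fold change 0.54, SE 0.31), which was placed here and not with DDX21 among the helicases of ribosome assembly. DHX29, which helps ribosomes scan structured mRNA leaders, had 35.2, 13.4 and 36.5 CPM in MSCs and 57.5, 55.3 and 54.3 CPM in EVs. Its groups did not overlap, with a log2 fold change of 0.97 (SE 0.38, unadjusted p = 0.0346, adjusted p = 0.286 by edgeR) and 0.64 without MSC replicate 2. A block for the pig gave DHX29 an unadjusted p of 0.0119 in edgeR and a fold over 2, which met the study's threshold, with an adjusted p of 0.149. DHX40 had 59.6, 39.3 and 61.8 CPM in MSCs and 69.2, 93.9 and 118 CPM in EVs, again without overlap (log2 fold change 0.81, SE 0.29, unadjusted p = 0.0255, adjusted p = 0.275 by edgeR, and 0.61 without EV replicate 3). DDX1, part of the tRNA ligase complex, had 62.0, 21.0 and 55.0 CPM in MSCs and 83.3, 85.5 and 78.7 CPM in EVs (log2 fold change 0.84, SE 0.39, and 0.50 without MSC replicate 2).

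DDX3X, a translation helicase encoded on the X chromosome, was the most read member of the DDX family and the highest per length, with 29.1 RPKM in MSCs and 49.4 RPKM in EVs. It had 318, 89.2 and 218 CPM in MSCs and 317, 385 and 384 CPM in EVs. EV 1 was level with MSC 1, so the groups overlapped, and the log2 fold change of 0.80 (SE 0.44) was 0.43 without MSC replicate 2. DDX6, which represses translation and promotes decapping in P-bodies, had 273, 126 and 248 CPM in MSCs and 307, 340 and 338 CPM in EVs, without overlap (log2 fold change 0.61, SE 0.33, adjusted p = 0.372 by edgeR, and 0.34 without MSC replicate 2). DHX9, or RNA helicase A, had 154, 124 and 175 CPM in MSCs and 187, 184 and 218 CPM in EVs, also without overlap (log2 fold change 0.38, SE 0.23). In the opposite direction, DHX30, which serves mitochondrial ribosomes, had 145, 156 and 138 CPM in MSCs and 139, 125 and 85.3 CPM in EVs (log2 fold change -0.33, SE 0.25, and -0.15 without EV replicate 3). For this group as a whole, MSC 2 was the lowest of the 6 libraries in 11 of 16 genes, and the median log2 fold change was 0.27 without it.

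Helicases of ribosome assembly had a median of -0.19 over 11 tested genes, which was -0.06 without MSC replicate 1 and -0.05 without EV replicate 3. In 0 of the 11 were the groups apart, where EVs were above MSCs in 14.3% and below them in 13.6% of all entries. DDX50, with its groups apart, was placed in the list of cytoplasmic or multifunctional helicases and is not among the 11. DDX54 had 168, 195 and 131 CPM in MSCs and 148, 122 and 75.6 CPM in EVs, lower in each pig (log2 fold change -0.52, SE 0.31, and -0.29 without EV replicate 3). DDX21, which processes ribosomal RNA in the nucleolus, had 224, 90.7 and 195 CPM in MSCs and 183, 200 and 197 CPM in EVs. Its MSC libraries spanned its EV libraries, with a log2 fold change of 0.19 (SE 0.35).

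Among helicases that sense viral RNA, DHX58, DDX60, RIGI and IFIH1 were highest in the libraries of pig 1, in MSCs as in EVs. For DHX9, DHX36 and DDX3X, of the cytoplasmic or multifunctional list, pig 1 was not the highest in EVs. DHX58 (LGP2) had 12.4, 5.17 and 5.85 CPM in MSCs and 15.0, 8.36 and 6.37 CPM in EVs, so that both libraries of pig 1 were the highest (log2 fold change 0.35, SE 0.48). DDX60 failed the filter: MSCs 1, 2 and 3 had 193, 8 and 8 reads, their EVs 111, 4 and 6, again highest in pig 1. DDX58 was at 0 reads, but an entry under its newer symbol RIGI, at the same locus, had 58.2, 12.4 and 15.5 CPM in MSCs and 53.4, 16.8 and 16.4 CPM in EVs (log2 fold change 0.01, SE 0.70). IFIH1 (MDA5), which the rule does not include, was counted 24, 0 and 2 times in MSCs and 21, 6 and 11 times in EVs. In each of the 4 genes pig 1 had the highest MSC and the highest EV value. These entries were chosen for description after their values were seen, and differences between pigs were not tested.

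**Figure D3:**
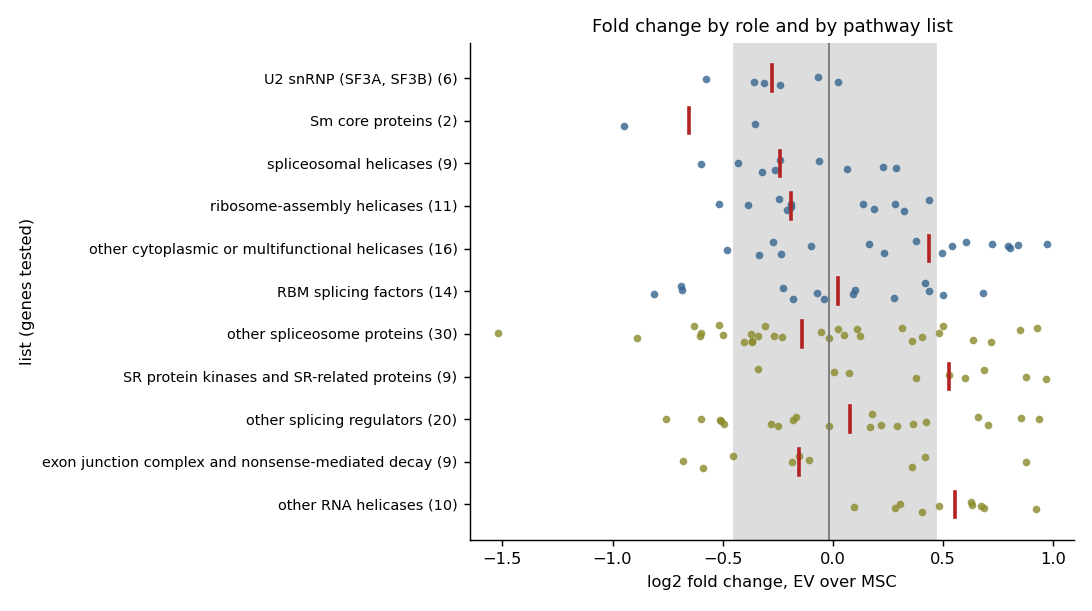
Log2 fold change of EVs over MSCs (x axis) of single genes (points) by role of the members (blue) and by lists of related genes outside the rule (olive), with list medians as red bars and the median and middle 50% of all entries in grey. Medians were at 0.44 for cytoplasmic or multifunctional helicases, 0.56 for other RNA helicases and 0.53 for SR protein kinases and related genes, and at -0.24 for spliceosomal helicases and -0.28 for SF3A and SF3B subunits.

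Genes of the same pathway outside the rule went both ways, and 0 of them passed the adjusted threshold by edgeR. Of 30 other spliceosome proteins tested, 13 were above 0, with a median of -0.14, and at the study's threshold 0 were higher and 1 was lower, beside 5.55% and 3.57% of all entries. This gene was SART1, a protein that recruits the tri-snRNP, with 225, 421 and 313 CPM in MSCs and 112, 109 and 113 CPM in EVs (log2 fold change -1.52, SE 0.28, unadjusted p = 0.000798, adjusted p = 0.206 by edgeR). DESeq2 gave SART1 an adjusted p of 0.00117, which passes the threshold. CWC22, which loads the exon junction complex, was at the opposite end, with 48.5, 40.7 and 45.5 CPM in MSCs and 97.2, 87.6 and 71.2 CPM in EVs (log2 fold change 0.93, SE 0.22, adjusted p = 0.219 by edgeR). SR protein kinases and SR-related proteins had a median of 0.53, with 8 of 9 (88.9%) above 0, beside 49.1% of all entries. The number above 0 was 7 with DESeq2 and 6 without MSC replicate 1. MSC 2 was the lowest library in 5 of the 9, and the median was 0.36 without it. In this list, CLK4, a kinase of SR proteins, had 26.6, 30.2 and 26.5 CPM in MSCs and 48.0, 54.8 and 50.1 CPM in EVs (log2 fold change 0.88, SE 0.21, adjusted p = 0.219 by edgeR). Other RNA helicases were all above 0, 10 of 10, beside 49.1% of all entries. Their median was 0.56, led by MTREX of the nuclear exosome at 0.92 (SE 0.33). In 8 of these 10, MSC 2 was the lowest library, and their median was 0.27 without it. The medians were 0.08 for 20 other splicing regulators and -0.15 for 9 genes of the exon junction complex and nonsense-mediated decay, and at the study's threshold 0 genes of these lists were higher or lower.

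MSC replicate 2 lay at an end of the range of libraries in many members. It was the lowest of the 6 libraries in 41 of the 95 members (43.2%), where it was lowest in 33.6% of all entries, and the highest in 29 (30.5%), where it was highest in 29.2% of all entries. The families went different ways in it. Its median deviation from the mean of the 6 libraries was -0.64 on the log2 scale for SRSF, -0.31 for HNRNP, -0.19 for RBM and -0.17 for DDX genes, and 0.30 for SF3 genes, beside -0.04 over all entries. In EVs of the same pig, SNRP genes deviated by -0.56 and SRSF genes by -0.31. EV replicate 3 was low too, at -0.36 for SNRP, -0.24 for SF3 and -0.21 for DDX genes, with SRSF genes at 0.04. Over all members it deviated by -0.10, beside -0.13 for MSC replicate 2. Without MSC replicate 2 the medians were -0.21 for SRSF, -0.12 for HNRNP, -0.11 for DDX, 0.08 for RBM, 0.12 for PRPF, 0.15 for DHX, -0.17 for SF3 and -0.56 for SNRP, so that those of SRSF and DDX changed sign. Members varied more between MSCs than between EVs, with a median SD of log2 CPM of 0.31 and 0.20, and 64.2% of members beside 61.5% of all entries had the larger SD in MSCs. Whether the culture, the RNA or the library of MSC replicate 2 or EV replicate 3 differed was not tested.

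**Figure D4:**
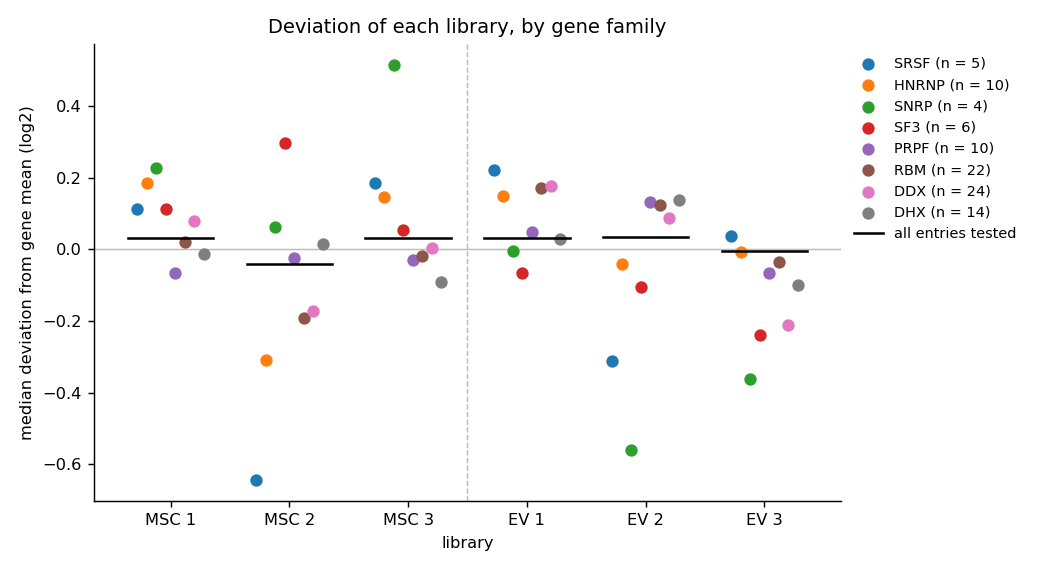
Median deviation of each library from the gene's mean over the 6 libraries (y axis, log2) for every gene family (coloured points) and for all entries (black bars), by library (x axis). In MSC 2, SRSF (-0.64) and HNRNP (-0.31) genes were low and SF3 genes (0.30) high, while all entries together stayed within 0.04 of 0. In EV 3, SNRP (-0.36), SF3 (-0.24) and DDX (-0.21) genes were low.

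Long entries tended to the higher values. Across the 95 members the Spearman correlation of the log2 fold change with the length of the entry was 0.32, and across all entries it was 0.15. Genes are not independent replicates, all values share the same 6 libraries, and the part of length in any fold change was not tested.

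The 28 members without a test were those with few or no reads. At 0 reads in all libraries were 13: DDX56, DDX58, DHX15, HNRNPAB, RBM10, RBM41, SNRPC, SNRPD3, SNRPF, SRSF1, SRSF2, SRSF4 and SRSF11. The other 15 had between 1 and 330 reads in total, with DDX60 the highest, and among them were HNRNPC (11 reads), HNRNPM (3 reads) and SRSF9 (8 reads). These counts do not show that the transcripts were absent. For 12 of the 13 at 0 reads, another entry covered at least 0.9 of the span. RBM10 and RBM41 lay on a chromosome named X without prefix, where all 1170 entries on X, Y or MT written this way had 0 reads. A longer entry without a symbol that spans SRSF2 (ENSSSCG00000023148) had 10846 reads, with 154, 128 and 218 CPM in MSCs and 177, 115 and 141 CPM in EVs (log2 fold change -0.21, SE 0.29). An entry over at least 97.2% of the span of HNRNPAB (ENSSSCG00000014031) had 2132 reads and a log2 fold change of -0.30 (SE 0.27).

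Of the 26 members with another entry over at least 0.9 of both spans, 16 had fewer than 10 reads in the 6 libraries together, and of the 97 other members 8 did. Tested in spite of such an overlap were 10 members, among them SNRPA, SRSF10, RBM3, RBM4 and RBM14. A further 18 tested members lay to at least 0.9 inside another, longer entry, among them RBM42, PRPF31, SF3B4, DHX40 and SRSF3. In the fit without entries that overlap in this way, PRPF39 and RBM27 were still the 2 members higher at the study's threshold, and SNRPA could not be tested.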

How the data were processed

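The mRNA libraries of 3 MSC and 3 EV samples were analysed. The labels name a stranded total RNA kit and the study's methods another TruSeq kit, so strand and selection are uncertain, and antisense or overlapping genes may not be told apart. The authors aligned reads with TopHat to susScr3 and deposited a table of 29661 entries with raw read counts per gene (featureCounts by the methods, HTSeq by the submitters' processing notes) and RPKM. Left out were 3 entries whose fields were shifted. Symbols came from the table (4336 entries) or, by Ensembl identifier, from a table of gene names (11804 of 25322 matched). The deposited RPKM values, normalized by the authors to gene length and mapped reads, were used for levels between genes and in limma. Sample columns without a sample numbered 0. The small-RNA tables were not used.

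Counts were tested with edgeR 4.0.16 in R 4.3.3 (TMM, filterByExpr, quasi-likelihood test, group only, Benjamini-Hochberg over all 12392 entries that passed the filter). Log2 fold changes are EV over MSC with their SE. CPM are TMM-scaled. The threshold was a fold over 2 with an adjusted, or as in the study an unadjusted, p-value under 0.05. Alternatives were other scalings, no filter or 1 CPM in 3 libraries, DESeq2 1.42.0, limma 3.58.1 on log2(RPKM + 1) or log2(RPKM + 0.1), counts summed per symbol, the pig as a block, leaving out each library, and leaving out overlapping entries (the fit by both spans was added after seeing the data). The fit was tested on simulated data.

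Labels give the same 3 pigs for MSCs and EVs. Deviations from group means correlated at 0.251, 0.384 and 0.408 within pigs and at -0.364 to -0.0385 between pigs. Subtracting group means makes the values between pigs negative on average once those within pigs are positive, so the contrast is partly fixed. The pairing rests on the labels. Replicate counts of a group differed by more than sampling noise. P-values measure the spread between 3 libraries a group.

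Members and lists were chosen with earlier results of these data known. Named were, per family, the most-read tested member and up to 2 members each way that moved alike in all 3 pigs by the largest fold change, every member past a threshold, and members not tested. Other names were chosen after their values were seen. Sequences were not used here.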

Additional observations from a re-analysis of the deposited data

How the results depend on the processing

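The 2 higher members, PRPF39 and RBM27, and the lower member SNRPA met the study's threshold under every scaling, without or with a stricter filter, with counts summed per symbol and with the pig as a block. With limma on log2(RPKM + 1), 1 member was higher and 0 lower, and among all entries 233 were higher, 194 lower and 11 past the adjusted threshold. Without entries covered by another, or covered over both spans, 0 members were lower, since SNRPA was not tested. Leaving out 1 library gave 1 (without EV replicate 2 or 3) to 6 (without MSC replicate 1) higher and 1 to 2 lower members, and 270 to 607 lower entries of all, the 270 without EV replicate 2. Past the adjusted threshold were 2 members with DESeq2. Of all entries, 136 passed it with the pig as a block, 405 with DESeq2, 3 without TMM scaling, 5 without the filter and 5 with limma on log2(RPKM + 0.1). With the pig as a block, DHX29 joined the higher members at the study's threshold. At an unadjusted p under 0.05 alone, the block took SRSF10, SNRPD2, SF3B4, PRPF31, RBM4 and RBM14 from the calls and added DDX1, DDX3X, DHX36 and RBM26.

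The family median of DHX moved to 0.13 with limma on log2(RPKM + 1) and without entries covered by another, and between 0.038 and 0.29 with 1 library left out. For SNRP the median was -0.26 without the filter and -0.27 with DESeq2, where members with few reads enter. Leaving out 1 library gave medians of -0.21 (without MSC replicate 2) to 0.25 for SRSF and -0.35 to -0.17 for SF3. The fold change of SRSF3 was -0.15 with all libraries, 0.00 without MSC replicate 1, 0.01 without MSC replicate 3 and -0.42 without MSC replicate 2. The cause of these changes was not tested. RBM27 and SNRPA were under 10 CPM in every library, which limits their precision.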
